A study of Mus musculus with 2 samples.

Results

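Cell types of the thalamus divided the glucose and lactate handling genes by isoform. The genes described here are 10 of the 32285 genes measured, taken by symbol from the deposited gene table: the glucose transporters Slc2a1 and Slc2a3, the hexokinases Hk1 and Hk2, the regulatory enzyme Pfkfb3, the lactate dehydrogenase subunits Ldha and Ldhb, and the monocarboxylate transporters Slc16a1, Slc16a3 and Slc16a7. All 10 passed the filter on low counts and were tested. Thalamic tissue came from 2 wildtype C57BL/6J mice aged 2 months. Each mouse gave 1 droplet-based single-cell RNA library that mixes all cell types. No condition was varied, so cell classes of the same 2 animals are compared.

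Glucose crosses the blood-brain barrier through GLUT1, the product of Slc2a1, while GLUT3, the product of Slc2a3, is known as the neuronal transporter. Hexokinases trap glucose as glucose-6-phosphate, HK1 being the general brain enzyme and HK2 an inducible enzyme of muscle, tumours and activated immune cells, and PFKFB3 makes an activator of phosphofructokinase, which speeds glycolysis. Lactate dehydrogenase is a tetramer of LDHA and LDHB subunits, of which LDHA-rich forms are associated with making lactate from pyruvate and LDHB-rich forms with the reverse step, and MCT1 (Slc16a1), MCT4 (Slc16a3) and MCT2 (Slc16a7) carry lactate, pyruvate and ketone bodies across membranes, MCT2 with the highest affinity. This set is often described as a division of labour between glia and neurons, although the RNA of a cell says nothing of the flux through it.

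Mouse 1 gave 7889 cell barcodes with 163418203 counted RNA molecules (unique molecular identifiers, UMIs), and mouse 2 gave 12107 with 204839993. Filtering left 6179 and 9170 cells, of which 5647 and 8825 fell into 14 classes that reached 20 cells per mouse. Each class is called "-like" because its name rests on marker genes, and in each mouse every named class but the unresolved neurons had its own markers summed to between 2998 and 28754 CPM (UMIs scaled to a common class total), with no marker at 0. The classes were astrocyte-like (1030 cells in mouse 1 and 361 in mouse 2), oligodendrocyte-like (1969 and 3306), committed oligodendrocyte precursor-like (45 and 145), oligodendrocyte precursor-like (143 and 966), microglia-like (826 and 510), border macrophage-like (111 and 50), endothelial-like (599 and 461), pericyte-like (310 and 257), smooth muscle-like (67 and 218), vascular leptomeningeal fibroblast-like (21 and 48), and glutamatergic (209 and 1605), GABAergic (48 and 63), habenular (143 and 347) and unresolved (126 and 488) neuron-like cells. The libraries shared 36 barcodes, 15 of them among kept cells. A list of 17 immediate early and dissociation stress genes was higher in mouse 2 in all 14 classes, with sums of 141 to 4709 CPM in mouse 1 and 414 to 32104 in mouse 2. The list includes the chemokine genes Ccl3 and Ccl4, so its sum is not a measure of dissociation stress alone. Haemoglobin and other erythroid RNA reached 29416 CPM in endothelial-like cells of mouse 1 and 16486 in border macrophage-like cells of mouse 2. Where 2 values are given below, the first is mouse 1 and the second mouse 2, and ± on a level is the SD with n = 2.

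The genes lie at separate loci of the GRCm38 build (positions from GENCODE M21). Slc2a1 (ENSMUSG00000028645) spans chr4:119108711-119137983 on the plus strand and Slc2a3 chr6:122727809-122801640 on the minus strand. Hk1 spans chr10:62268855-62379908 on the minus strand, Hk2 chr6:82725025-82774454 on the minus strand and Pfkfb3 chr2:11471433-11554077 on the minus strand. Ldha spans chr7:46841475-46855627 on the plus strand and Ldhb chr6:142490249-142507957 on the minus strand. Slc16a1 spans chr3:104638668-104658462 on the plus strand, Slc16a3 chr11:120948480-120960868 on the plus strand and Slc16a7 chr10:125219270-125389465 on the minus strand. Annotated genes of the opposite strand overlap Slc2a1 (Gm12867 and Gm12868), Slc16a7 (Gm45604 and Gm47862), Hk1 (Hk1os), Hk2 (Gm17034) and Pfkfb3 (Gm10851), and genes of the same strand overlap Slc2a1, Slc2a3, Slc16a1 and Pfkfb3. No source used here says whether the counting took strand or intron reads into account, so reads at these overlaps are uncertain.

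RefSeq windows of 250 bases upstream of an annotated start (GRCm38.p6) were matched for 8 of the 10 genes, in 11 windows. Promoters of glycolytic genes are textbook sites of the hypoxia response element, whose core is ACGTG or GCGTG, and of the E-box CACGTG, which MYC and related factors bind. A window of each of 6 genes is shown because their genes carry the divisions described below: Slc2a1 and Slc16a1 (endothelial), Hk2 and Slc16a3 (microglial), and Ldha and Ldhb. They are Slc2a1 at chr4:119108495-119108744 (plus strand, 66.4% GC), Slc16a1 at chr3:104638414-104638663 (plus strand, 76.4% GC), Hk2 at chr6:82774455-82774704 (minus strand, 69.6% GC), Slc16a3 at chr11:120948817-120949066 (plus strand, 73.6% GC), Ldha at chr7:46845554-46845803 (plus strand, 67.2% GC) and Ldhb at chr6:142507958-142508207 (minus strand, 56.4% GC). Each is written 5′ to 3′ along the gene's strand, and capitals mark every ACGTG or GCGTG on either strand, a CACGTG palindrome counting as 2 overlapping matches.
Slc2a1: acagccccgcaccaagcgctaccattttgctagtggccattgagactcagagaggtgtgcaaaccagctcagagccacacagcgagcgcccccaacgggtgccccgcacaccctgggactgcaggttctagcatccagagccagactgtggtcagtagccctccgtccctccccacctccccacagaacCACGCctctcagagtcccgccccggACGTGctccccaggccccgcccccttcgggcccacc
Slc16a1: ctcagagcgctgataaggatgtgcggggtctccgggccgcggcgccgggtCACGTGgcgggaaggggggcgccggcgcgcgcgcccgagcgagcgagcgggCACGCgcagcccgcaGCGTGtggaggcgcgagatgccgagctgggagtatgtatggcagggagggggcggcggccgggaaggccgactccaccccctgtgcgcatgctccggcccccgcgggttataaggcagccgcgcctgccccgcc
Hk2: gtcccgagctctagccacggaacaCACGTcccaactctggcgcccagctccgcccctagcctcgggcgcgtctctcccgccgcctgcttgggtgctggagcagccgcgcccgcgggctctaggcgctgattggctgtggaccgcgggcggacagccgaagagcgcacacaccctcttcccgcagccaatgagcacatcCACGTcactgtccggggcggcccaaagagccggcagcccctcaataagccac
Slc16a3: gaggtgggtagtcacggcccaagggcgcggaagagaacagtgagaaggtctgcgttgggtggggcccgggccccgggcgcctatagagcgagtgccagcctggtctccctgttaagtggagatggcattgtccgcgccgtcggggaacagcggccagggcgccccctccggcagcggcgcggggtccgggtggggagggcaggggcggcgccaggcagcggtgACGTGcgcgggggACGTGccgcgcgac
Ldha: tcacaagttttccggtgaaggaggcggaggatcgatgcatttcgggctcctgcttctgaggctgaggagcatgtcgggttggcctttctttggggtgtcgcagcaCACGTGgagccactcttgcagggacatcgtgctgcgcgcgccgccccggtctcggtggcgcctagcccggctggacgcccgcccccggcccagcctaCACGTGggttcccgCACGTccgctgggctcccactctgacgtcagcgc
Ldhb: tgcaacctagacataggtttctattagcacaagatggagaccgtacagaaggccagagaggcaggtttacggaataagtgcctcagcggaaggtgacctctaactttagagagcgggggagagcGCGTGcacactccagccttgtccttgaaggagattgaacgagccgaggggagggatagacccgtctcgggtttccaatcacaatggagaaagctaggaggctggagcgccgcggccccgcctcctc
Ldha has 2 windows, of which the printed one held 5 core matches, with 2 CACGTG palindromes, and the other (chr7:46846832-46847081) 1 and no palindrome. The Ldhb window held 1 and no palindrome. Slc16a1 had 4 matches with 1 palindrome, and Slc2a1, Hk2 and Slc16a3 had 2 each. Of all 32851 windows, 38.6% held at least 1 core, 16.7% at least 2, 6.58% at least 3 and 6.02% a CACGTG. Among the 9178 windows with at least 60% GC, the first 3 of these shares were 63.8%, 33.5% and 15.6%. Of the 11 windows of these genes, 10 held a core and 3 a CACGTG, the third being a Pfkfb3 window. Those 3 windows had 60.4% to 76.4% GC, against a median of 52.4% over all windows. The CACGTG share among windows of at least 60% GC was not counted. The matches describe letters, not bound sites.

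Slc2a1 was an endothelial gene with a smaller glial share. It stood at 1764 and 1882 CPM in endothelial-like cells, 102 and 111 CPM in astrocyte-like and 69.5 and 75.4 CPM in oligodendrocyte-like cells. These 3 classes kept this order in both mice without overlap, apart from 85.2 CPM in fibroblast-like cells of mouse 2, where mouse 1 gave 10.2 CPM from 3 UMIs. Pericyte-like cells, which wrap the same capillaries, had 38.7 and 50.3 CPM, and microglia-like cells 31.9 and 68.1 CPM. The 4 neuron-like classes, the precursor-like classes, smooth muscle-like and border macrophage-like cells lay at 7.49 to 30.6 CPM. Ordered by mean, neighbouring classes overlapped between mice in 8 of the 13 steps, mostly at the low end.

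Slc2a3 ran nearly the other way. GABAergic neuron-like cells had the most, at 104 and 128 CPM, followed by unresolved (62.2 and 81.8 CPM) and glutamatergic (61.7 and 70.3 CPM) neuron-like cells. Oligodendrocyte precursor-like cells stood among the neurons at 53.2 and 71.8 CPM, with values that overlapped those of the glutamatergic and unresolved classes, and above habenular neuron-like cells at 28.6 and 27.1 CPM. In oligodendrocyte-like cells Slc2a3 was 2.49 and 2.97 CPM, in astrocyte-like 6.24 and 5.38 CPM and in endothelial-like 2.33 and 5.64 CPM. Microglia-like, border macrophage-like, pericyte-like and smooth muscle-like cells held intermediate levels of 11.5 to 24.5 CPM.

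As a share of the UMIs of both transporters, Slc2a1 made up 99.9% (95% interval, exact binomial, 99.8 to 99.9) and 99.7% (99.5 to 99.8) in endothelial-like cells. The share was 96.5% and 96.2% in oligodendrocyte-like and 94.2% and 95.4% in astrocyte-like cells, against 8.49% to 33.6% in the neuron-like classes. Along the oligodendrocyte lineage it was 25.8% and 9.92% in precursor-like, 91.3% and 61.1% in committed and 96.5% and 96.2% in oligodendrocyte-like cells. The mice differed at the precursor stage and at the middle stage, the latter resting on 46 and 108 UMIs of the pair. Microglia-like cells held 59.1% and 82%. UMIs come from the 3′ ends of RNA and capture can differ between genes, so such shares compare classes and are not molecule ratios, and their intervals cover counting error only.

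**Figure D1:**
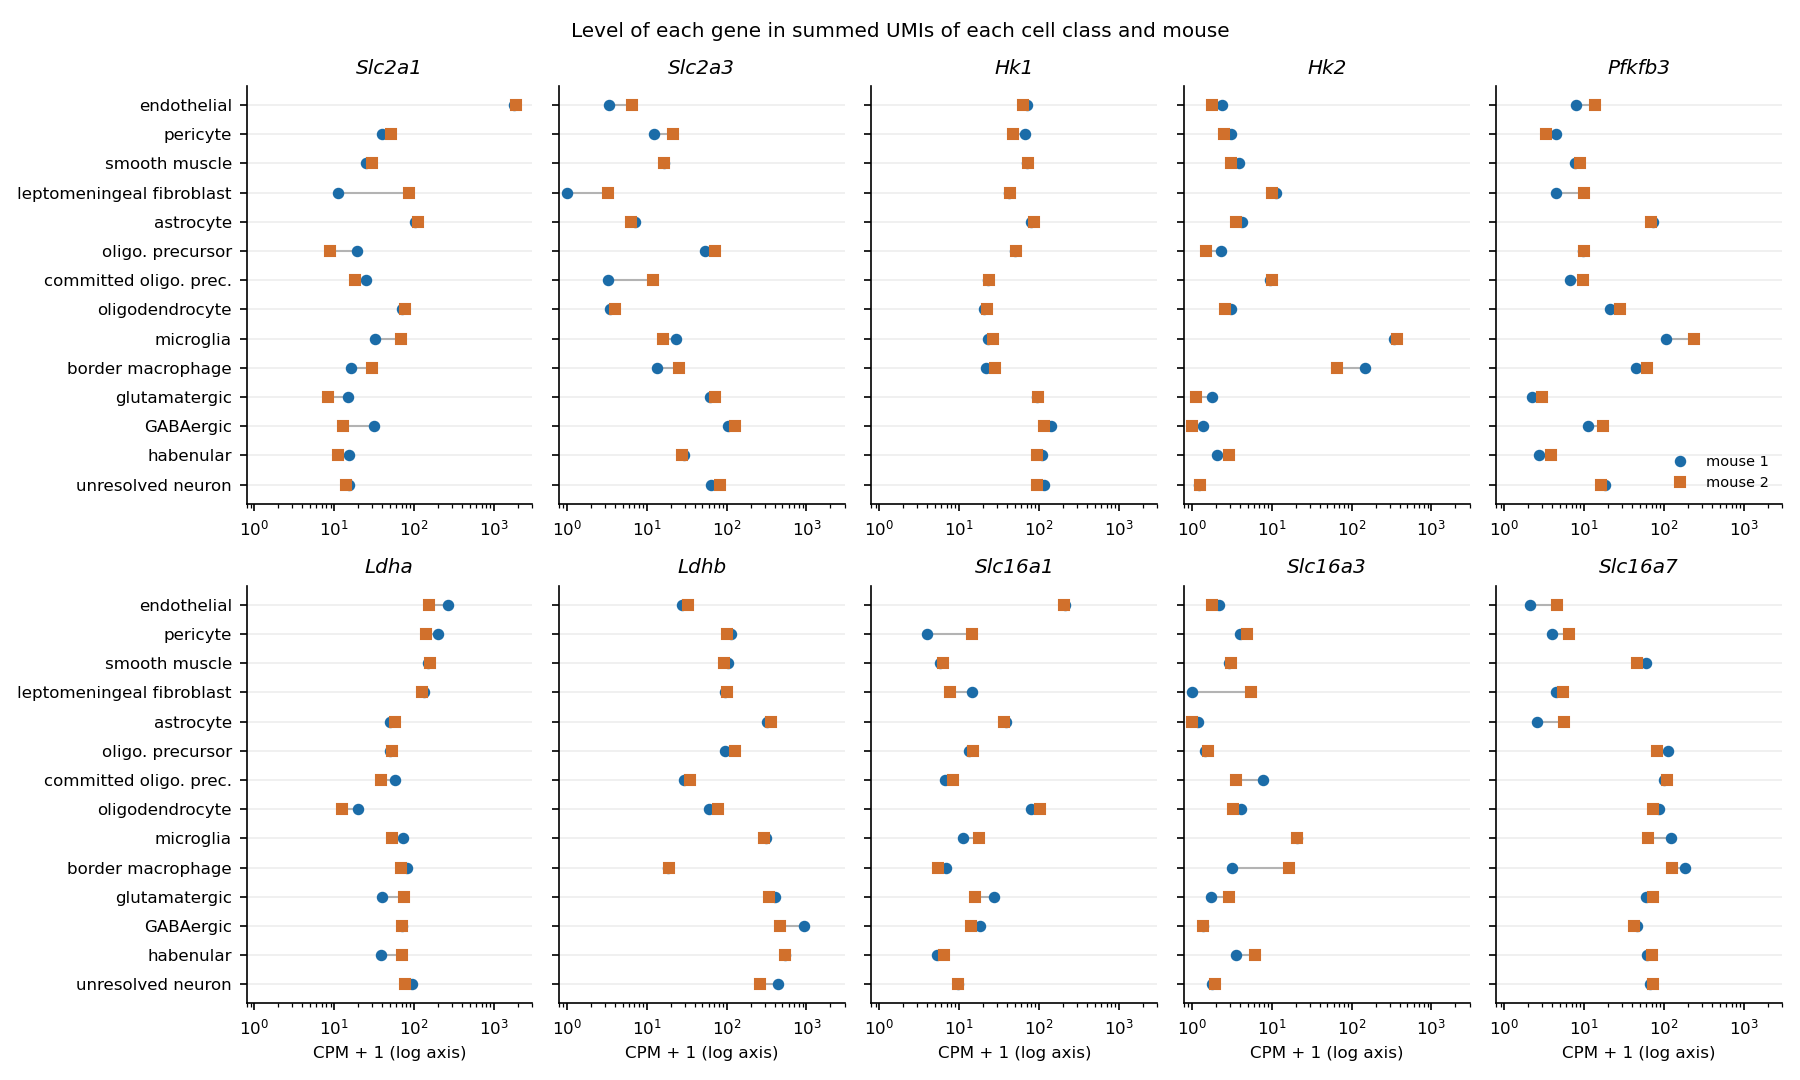
Level of each of the 10 genes in the 14 cell classes, as CPM + 1 on a log axis, with 1 point per mouse and a grey line joining the mice. Slc2a1 is highest in endothelial-like cells (1764 and 1882 CPM), Hk2 in microglia-like cells (338 and 365 CPM) and Slc16a7 lowest in endothelial-like and astrocyte-like cells.

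Hk2 was close to a microglial gene. It stood at 338 and 365 CPM in microglia-like cells and 146 and 64.7 CPM in border macrophage-like cells, the macrophages of meninges and perivascular spaces. All 12 other classes lay at or below 10.2 CPM, and the groups did not overlap. The highest of them were fibroblast-like cells with 3 and 4 UMIs in all and committed precursor-like cells at 8.61 and 9.16 CPM. Neuron-like classes lay at 0 to 1.95 CPM, with 59 UMIs over both mice. Pooled over mice, the rate of Hk2 UMIs was 825 (95% exact interval 639 to 1085) times as high in microglia-like as in neuron-like cells and 110.2 (95% exact interval 85.5 to 145) times as high as in astrocyte-like cells, intervals covering counting error only.

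Hk1 was spread more evenly, with a ratio of highest to lowest class mean of 6.19, the smallest of the 10 genes. GABAergic neuron-like cells had 138 and 114 CPM, the other neuron-like classes 92.5 to 113 CPM and astrocyte-like cells 79.1 and 86.1 CPM. Vascular classes lay at 40.8 to 71.3 CPM. The lowest were microglia-like (21.9 and 25.7 CPM), border macrophage-like, committed precursor-like and oligodendrocyte-like cells (19.6 and 21.2 CPM), which together spanned 19.6 to 26.8 CPM, below every other class in both mice.

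Hk2 made up 93.9% (95% interval, exact binomial, 93.1 to 94.6) and 93.4% (92.2 to 94.5) of hexokinase 1 and 2 UMIs in microglia-like cells, and 87.7% and 70.7% in border macrophage-like cells. In committed precursor-like cells it was 28.3% and 28.9%, on 15 and 35 Hk2 UMIs, and in oligodendrocyte-like cells 9.55% and 6.99%. In the neuron-like classes it spanned 0% to 2.03%. The 2 macrophage-type classes were the only ones of 14 with Hk2 above 50% in each mouse.

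Microglial marker RNA was low but not absent elsewhere: the 8 listed markers summed to 16669 and 12588 CPM in microglia-like, 2064 and 1194 CPM in border macrophage-like and 36.4 to 180.3 CPM in all other classes, with none of the 8 at 0. Per 100 microglial marker UMIs, microglia-like cells held 2.03 and 2.9 Hk2 UMIs. The ratio was 7.07 and 5.42 in border macrophage-like, 5.02 and 10.9 in committed precursor-like, 3.41 and 4.0 in astrocyte-like and 1.41 and 1.72 in endothelial-like cells. In oligodendrocyte-like cells it was 2.17 and 2.49, close to the microglia-like values. The part of stray microglial RNA in the low Hk2 values was not tested.

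Pfkfb3 was raised in some glial classes and in border macrophages. It was highest in microglia-like cells at 106 and 236 CPM, then in astrocyte-like cells at 72.3 and 67.9 CPM, border macrophage-like cells at 43.6 and 60.2 CPM and oligodendrocyte-like cells at 20.2 and 26.9 CPM. These 4 classes did not overlap one another. Oligodendrocyte precursor-like (8.57 and 8.89 CPM) and committed precursor-like cells (5.74 and 8.64 CPM) lay below GABAergic and unresolved neuron-like cells in each mouse. Glutamatergic and habenular neuron-like cells had the lowest means, with 1.21 and 1.93 CPM in the former and 1.75 and 2.87 CPM in the latter, the latter overlapping pericyte-like cells (3.4 and 2.36 CPM), while GABAergic (10.1 and 16.3 CPM) and unresolved neuron-like cells (17.3 and 15.1 CPM) lay above them. In microglia-like cells, where mouse 2 had the higher value, the stress list sum was 4391 and 32104 CPM, and its part in Pfkfb3 was not tested.

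**Figure D2:**
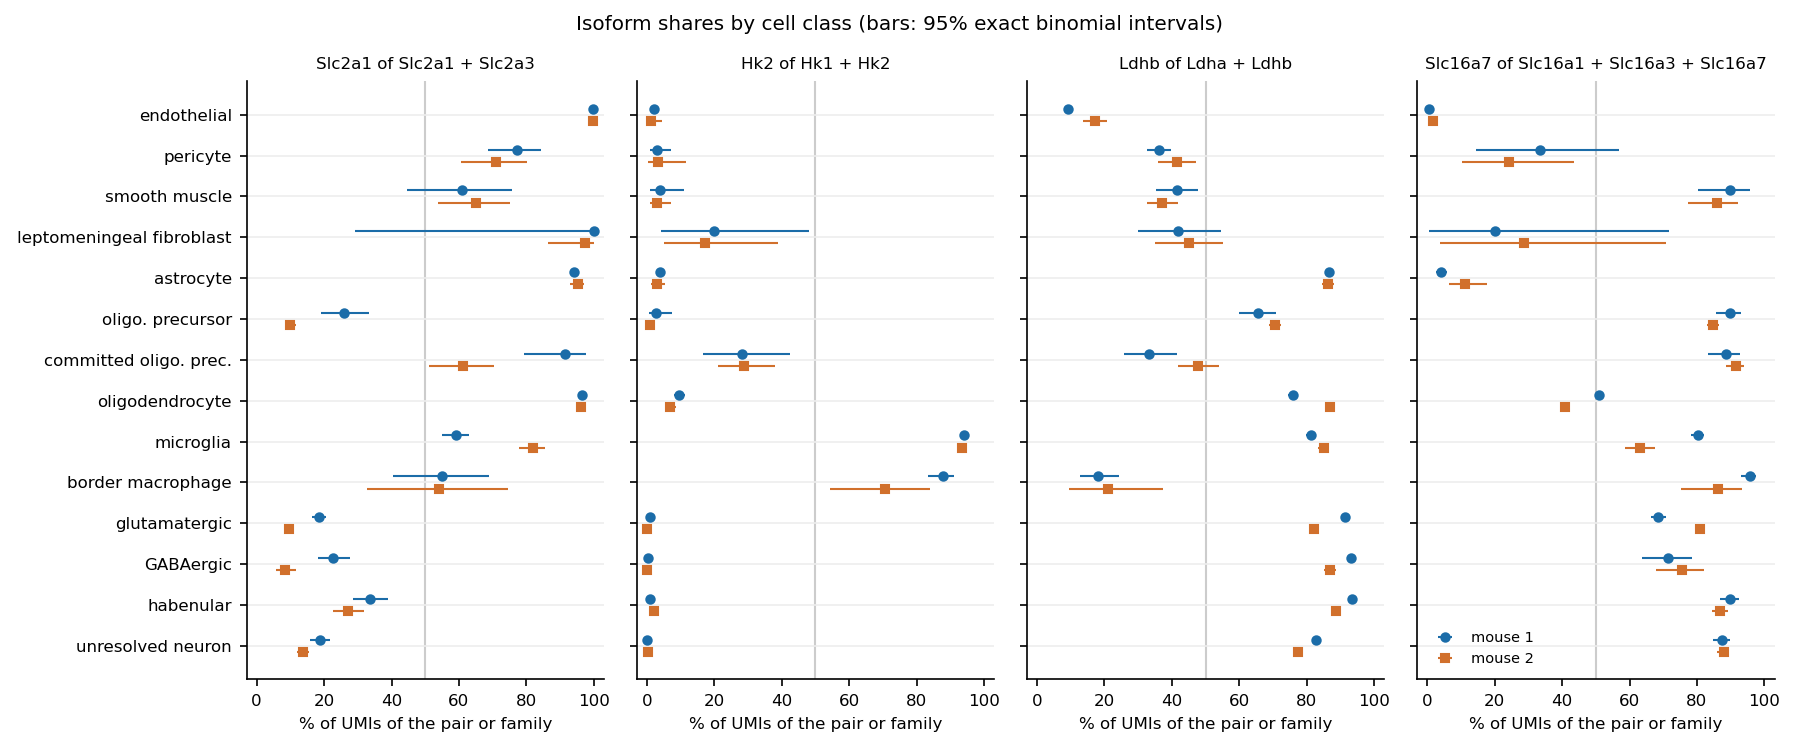
Shares of Slc2a1, Hk2, Ldhb and Slc16a7 in the UMIs of their pair or family (percent) for the 14 classes, 1 point per mouse, with bars for 95% exact binomial intervals and a grey line at 50%. Hk2 exceeds 50% only in microglia-like and border macrophage-like cells, and Ldhb is at 9.05% and 17.1% in endothelial-like cells against 77.4% to 93.4% in neuron-like classes.

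Ldha was vascular and Ldhb neuronal, astrocytic and microglial. Ldha stood at 267 and 154 CPM in endothelial-like, 198 and 141 CPM in pericyte-like, 147 and 156 CPM in smooth muscle-like and 133 and 123 CPM in fibroblast-like cells. These 4 classes overlapped partly and lay above all others, which spanned 11.4 to 93.6 CPM. Oligodendrocyte-like cells were lowest at 18.7 and 11.4 CPM, below every other class in both mice. Ldha was higher in mouse 1 in endothelial-like and pericyte-like cells and higher in mouse 2 in glutamatergic (38.9 and 73.4 CPM) and habenular (38.1 and 69.3 CPM) neuron-like cells.

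Ldhb stood at 928 and 461 CPM in GABAergic, 538 and 538 CPM in habenular, 406 and 335 CPM in glutamatergic and 445 and 258 CPM in unresolved neuron-like cells. Astrocyte-like cells (316 and 359 CPM) and microglia-like cells (309 and 296 CPM) were as high as part of the neurons, and the astrocyte-like and glutamatergic values overlapped. Precursor-like, pericyte-like, smooth muscle-like and fibroblast-like cells formed a middle group at 92.1 to 125 CPM, oligodendrocyte-like cells had 58.7 and 76.6 CPM and committed precursor-like cells 28.1 and 34.3 CPM. The lowest were endothelial-like (26.6 and 31.8 CPM) and border macrophage-like cells (17.8 and 17.8 CPM), the latter from 33 and 8 UMIs.

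The Ldhb share of both subunits' UMIs was 9.05% (95% interval, exact binomial, 8.07 to 10.1) and 17.1% (13.8 to 20.8) in endothelial-like cells. Border macrophage-like cells held 18% and 21.1%, mural and fibroblast-like classes 36.1% to 45%, committed precursor-like cells 33.3% and 47.8% and precursor-like cells 65.5% and 70.5%. The share was 75.8% and 87% in oligodendrocyte-like, 81.1% and 85% in microglia-like and 86.6% and 86.4% in astrocyte-like cells, and 77.4% to 93.4% over the neuron-like classes. Astrocyte-like and neuron-like cells overlapped in their Ldhb share, oligodendrocyte-like and microglia-like cells of mouse 1 lay below every neuron-like class of that mouse, and the 2 macrophage-type classes lay far apart from each other.

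Of the monocarboxylate transporters, Slc16a1 was endothelial and oligodendroglial. It stood at 213 and 205 CPM in endothelial-like, 78.3 and 102 CPM in oligodendrocyte-like and 37.3 and 35.7 CPM in astrocyte-like cells, in that order in both mice without overlap. Glutamatergic neuron-like cells had 26.3 and 14.9 CPM, habenular neuron-like cells 4.3 and 5.43 CPM, and the remaining classes 2.97 to 17.3 CPM.

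Slc16a7 was nearly lacking in endothelial-like and astrocyte-like cells. They had 1.12 and 3.62 CPM and 1.61 and 4.53 CPM, and pericyte-like and fibroblast-like cells 2.97 to 5.5 CPM. All other classes lay at 41.2 to 184 CPM and did not overlap these 4. Border macrophage-like cells had the most, 184 and 125 CPM, followed by committed precursor-like (98.2 and 108 CPM), precursor-like (111 and 80.1 CPM), microglia-like (121 and 62.7 CPM) and oligodendrocyte-like cells (84.9 and 72.3 CPM), which overlapped. The neuron-like classes lay at 41.2 to 72 CPM, and smooth muscle-like cells at 59.3 and 45.3 CPM stood apart from pericyte-like cells, the other mural type.

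Slc16a3 was low throughout. Microglia-like cells held 19.5 and 19.8 CPM, from 218 and 99 UMIs, and the other classes at most 15.6 CPM. Border macrophage-like cells differed between mice (2.15 and 15.6 CPM, 4 and 7 UMIs). Astrocyte-like cells, in which the encoded MCT4 is usually described, held 3 and 0 UMIs among 19088856. Pooled over mice, the rate in microglia-like cells was 125 (95% exact interval 42.2 to 607) times that in astrocyte-like cells, with counting error only.

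Within the 3 transporters, Slc16a1 held 98.9% and 97.9% of UMIs in endothelial-like and 95.4% and 88.7% in astrocyte-like cells. In oligodendrocyte-like cells Slc16a1 (47.1% and 57.8%) and Slc16a7 (51% and 40.8%) held similar shares. Slc16a7 held 89.8% and 84.8% in precursor-like and 88.6% and 91.6% in committed cells, 95.8% and 86.2% in border macrophage-like, 89.9% and 85.9% in smooth muscle-like and 68.6% to 89.8% in neuron-like classes. Slc16a3 reached 13% and 19.9% in microglia-like cells, where Slc16a7 held 80.2% and 63.2%.

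Log2 fold changes were fitted with edgeR on UMI counts summed per mouse and class, and a gene was called at an adjusted p below 0.05 with a change of at least 1 on the log2 scale. On a fold change, ± is the standard error derived from the test statistic of the fit, not an SD between the mice. Mural-like cells are the pericyte-like and smooth muscle-like classes, entered as the mean of their coefficients, while the CPM printed for them are averages. Endothelial-like cells exceeded mural-like cells in Slc2a1, Slc16a1 and Pfkfb3 and fell below them in Slc2a3, Slc16a7 and Ldhb. That is 3 genes higher and 3 lower of 10, where of the 17188 genes tested 22.4% of all genes were called (12% higher and 10.5% lower). Slc2a1, at 1823 ± 83.6 against 35.4 ± 5.82 CPM, differed by 5.85 ± 0.47 (adjusted p = 5.22e-09), and Slc16a1, at 209 ± 5.22 against 6.61 ± 3.86 CPM, by 5.24 ± 0.35 (adjusted p = 5.02e-10). Ldhb, at 29.2 ± 3.7 against 102 ± 8.52 CPM, differed by −1.69 ± 0.28 (adjusted p = 5.81e-05), whereas Ldha, with an adjusted p of 0.206, was not called (0.52 ± 0.29). Slc16a7 differed by −2.86 ± 0.47 (adjusted p = 6.58e-05) and Slc2a3 by −2.02 ± 0.38 (adjusted p = 0.000304). The Slc16a7 difference was not shared by both mural classes. Endothelial-like cells (1.12 and 3.62 CPM) overlapped pericyte-like cells (2.97 and 5.5 CPM), while smooth muscle-like cells had 59.3 and 45.3 CPM. Pfkfb3 differed by 1.08 ± 0.37 (adjusted p = 0.0336) from low levels (9.89 ± 4.23 against 5.11 ± 0.0881 CPM). Its endothelial-like values (6.9 and 12.9 CPM) overlapped those of smooth muscle-like cells (6.69 and 7.99 CPM) and lay above pericyte-like cells (3.4 and 2.36 CPM). The Pfkfb3 call was lost with DESeq2 size factors (0.99, adjusted p = 0.0633), with DESeq2 and without the replicate block. The Slc16a7 call was lost at a mitochondrial limit of 5%, where the mural side held pericyte-like cells alone, with −0.72 (adjusted p = 0.589). The Slc2a3 call was lost at Leiden resolution 0.5 (−0.96).

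Among the pathway lists, of 18 other glycolysis genes 0 were higher and 3 lower (median −0.15), of 13 glycogen genes 1 was higher and 8 lower (median −1.33), and of 12 other sugar and monocarboxylate transport genes 3 were higher and 2 lower (median 0.86), against a median of 0.09 over all genes tested. Bsg, which encodes the basigin chaperone of MCT1, was higher by 4.84 ± 0.25 (adjusted p = 2.35e-11) in endothelial-like cells (9348 ± 3395 against 345 ± 19.7 CPM), and Slc16a4, an orphan monocarboxylate transporter, by 4.79 ± 0.44 (adjusted p = 2.91e-08). Pygm, the muscle glycogen phosphorylase, was lower at −4.04 ± 0.46 (adjusted p = 5.52e-07), while Gbe1, the glycogen branching enzyme, was endothelial (2.66 ± 0.24, adjusted p = 2.14e-08). In the lists, of 13 genes of pyruvate entry to mitochondria 0 were higher and 2 lower (median −0.55), and of 15 hypoxia response genes 5 were higher and 2 lower (median 0.24).

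Against astrocyte-like cells, endothelial-like cells had more Slc2a1, Slc16a1, Ldha and Slc16a3 and less Ldhb and Pfkfb3. These are 4 genes higher and 2 lower, while 42.2% of all genes were called (20.1% higher and 22.1% lower). Slc2a1 differed by 4.07 ± 0.57 (adjusted p = 4.39e-06) and Slc16a1 by 2.48 ± 0.35 (adjusted p = 4.92e-06), with each mouse giving nearly the same value (4.08 in mouse 1 and 4.06 in mouse 2, and 2.48 in mouse 1 and 2.50 in mouse 2). The lactate dehydrogenase subunits went opposite ways, Ldha by 2.00 ± 0.35 (adjusted p = 7.25e-05) and Ldhb by −3.56 ± 0.32 (adjusted p = 1.07e-08). Pfkfb3 differed by −2.99 ± 0.33 (adjusted p = 2.10e-07). The Slc16a3 call rested on 15 against 3 UMIs, a pooled ratio of 7.23 (95% exact interval 2.04 to 38.9), and was lost at a mitochondrial limit of 5% (adjusted p = 0.0565). Hk1 (−0.34 ± 0.21, adjusted p = 0.186) and Slc16a7 (−0.51 ± 0.51, adjusted p = 0.44) were not called.

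By list, of 18 other glycolysis genes 1 was higher and 8 lower (median −0.32), of 13 glycogen genes 2 were higher and 11 lower (median −3.78), and of 13 genes of pyruvate entry to mitochondria 1 was higher and 6 lower (median −0.99), against a median of 0.00 over all genes. Aldoc, the brain aldolase, stood at 6.07 ± 1.18 against 1259.8 ± 196 CPM, a difference of −7.63 ± 0.38 (adjusted p = 1.21e-11), and Pfkfb4, another member of the Pfkfb3 family, differed by −4.82 ± 0.39 (adjusted p = 2.92e-09). Ppp1r3c, which targets a phosphatase to glycogen, differed by −5.38 ± 0.68 (adjusted p = 1.82e-06). Of 12 other sugar and monocarboxylate transport genes 4 were higher and 5 lower (median −0.83), and of 15 hypoxia response genes 6 were higher and 5 lower (median 0.42), with Bsg at 6.05 ± 0.35 (adjusted p = 5.87e-11). The stress list had 15 higher and 0 lower of 17 in this comparison, with sums of 2463 and 12566 CPM in endothelial-like and 141 and 414 CPM in astrocyte-like cells, and its part in the result was not tested.

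Astrocyte-like cells exceeded the 4 neuron-like classes (mean of their coefficients) in Pfkfb3, Slc2a1, Hk2 and Slc16a1 and fell below them in Slc16a7, Slc2a3 and Slc16a3. That is 4 higher and 3 lower of 10, while 43.5% of all genes were called (21.6% higher and 21.9% lower). Pfkfb3, at 70.1 ± 3.09 against 8.32 ± 1.03 CPM, differed by 3.98 ± 0.21 (adjusted p = 1.95e-12) and Slc2a1, at 106 ± 6.14 against 14.5 ± 5.47 CPM, by 3.13 ± 0.36 (adjusted p = 2.11e-07). Slc16a7, at 3.07 ± 2.07 against 60.5 ± 4.54 CPM, differed by −4.37 ± 0.37 (adjusted p = 2.69e-09), the reverse of Slc16a1 at 1.97 ± 0.25 (adjusted p = 1.10e-06). Slc2a3 differed by −3.13 ± 0.31 (adjusted p = 3.12e-08). For Slc16a3 the pooled rate in neuron-like cells was 11.3 (95% exact interval 3.83 to 55.3) times that in astrocyte-like cells, and for Hk2, with a fitted value of 3.01 ± 0.49 (adjusted p = 2.47e-05), the sides held 60 and 59 UMIs, from very different totals.

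Neither lactate dehydrogenase subunit was called between astrocyte-like and neuron-like cells. Ldha differed by −0.12 ± 0.27 (adjusted p = 0.742) and Ldhb by −0.28 ± 0.23 (adjusted p = 0.301), with −0.51 in mouse 1 and 0.00 in mouse 2 for Ldhb. Hk1 was also uncalled at −0.17 ± 0.17. A difference below the threshold does not show equal levels. In simulated data for this comparison, 61% of genes changed 2-fold and 100% of those changed 4-fold passed the p threshold in the right direction. The size threshold was not applied there, only genes of higher counts were changed and no other class differences were simulated. These shares are therefore not the shares that would be called.

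Among the pathway lists, of 13 glycogen genes 12 were higher and 0 lower (median 2.48), and of 18 other glycolysis genes 5 were higher and 5 lower (median −0.69), beside 0.02 for all genes. The glycogen genes included Ppp1r3c (6.48 ± 0.40, adjusted p = 5.03e-11, 76.4 ± 15.7 against 1.34 ± 1.32 CPM), Pygm (5.37 ± 0.27) and Phka1, a phosphorylase kinase subunit (4.30 ± 0.17). Within glycolysis, isozymes split: Aldoc was astrocytic by 4.52 ± 0.19 (adjusted p = 5.02e-14) and Eno2, the neuronal enolase, neuronal at −4.39 ± 0.45 (adjusted p = 4.24e-08). Pfkfb4 was higher in astrocyte-like cells by 2.74 ± 0.21 (adjusted p = 6.56e-10). In the lists, of 12 other sugar and monocarboxylate transport genes 6 were higher and 3 lower (median 1.01), of 13 genes of pyruvate entry to mitochondria 4 were higher and 2 lower (median −0.11), and of 15 hypoxia response genes 8 were higher and 3 lower (median 1.29). Pcx, pyruvate carboxylase, differed by 3.63 ± 0.20 (adjusted p = 4.29e-12) and Pdp1, which activates pyruvate dehydrogenase, by −3.05 ± 0.45 (adjusted p = 6.05e-06).

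Oligodendrocyte-like cells exceeded the mean of the 4 neuron-like classes in Slc16a1, Slc2a1, Pfkfb3, Hk2 and Slc16a3 and fell below it in Slc2a3, Ldhb, Hk1 and Ldha. These are 5 higher and 4 lower, while 45.5% of all genes were called (18.9% higher and 26.5% lower). Slc16a1, at 90.3 ± 17 against 12.3 ± 2.54 CPM, differed by 3.48 ± 0.23 (adjusted p = 6.43e-11) and Slc2a1 by 2.80 ± 0.35 (adjusted p = 7.11e-07). Slc2a3, at 2.73 ± 0.334 against 70.5 ± 8.88 CPM, differed by −4.10 ± 0.31 (adjusted p = 5.09e-10). Both lactate dehydrogenase subunits were lower, Ldhb by −2.37 ± 0.26 (adjusted p = 1.22e-07) and Ldha by −1.70 ± 0.30 (adjusted p = 5.17e-05), as was Hk1 (−1.96 ± 0.19, adjusted p = 1.28e-08). Slc16a7 passed the p threshold but not the size threshold (0.82 ± 0.23, adjusted p = 0.00358). It was called without neuron-like clusters under 1% ribosomal UMIs, a setting chosen after seeing the data (1.08, adjusted p = 0.000582). With no filter on low counts it was also called (1.00, adjusted p = 8.24e-05). The Hk2 and Slc16a3 calls came from low levels that overlapped those of habenular neuron-like cells. Hk2 was 2.07 and 1.59 CPM, against 1.08 and 1.95 CPM in habenular neuron-like cells. Slc16a3 was 3.1 and 2.33 CPM, against 2.56 and 5.23 CPM there. By list, of 18 other glycolysis genes 0 were higher and 10 lower (median −1.30), and of 13 glycogen genes 2 were higher and 4 lower (median 0.03), beside −0.03 for all genes, with Eno2 at −4.39 ± 0.43, Pfkp at −3.72 ± 0.50 and Pfkm at −3.17 ± 0.25, the last 2 being phosphofructokinase isoforms. Of 13 genes of pyruvate entry to mitochondria 4 were higher and 3 lower (median 0.09), of 12 other sugar and monocarboxylate transport genes 0 were higher and 4 lower (median −0.33), and of 15 hypoxia response genes 7 were higher and 1 lower (median 0.52). Mpc1, a subunit of the mitochondrial pyruvate carrier, was higher by 1.27 ± 0.15 (adjusted p = 1.77e-07), and Slc2a13, an inositol transporter, lower at −5.38 ± 0.34 (adjusted p = 2.40e-11).

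Along the oligodendrocyte lineage the transporters differed by stage. Committed precursor-like cells already had less Slc2a3 than precursor-like cells (2.3 and 11 against 53.2 and 71.8 CPM), a difference of −2.99 ± 0.37 (adjusted p = 5.09e-06). Slc2a1 (0.88 ± 0.59, adjusted p = 0.297) and Slc16a1 (−0.86 ± 0.44, adjusted p = 0.155) were not called at this stage. In oligodendrocyte-like against precursor-like cells both were called, Slc2a1 by 3.05 ± 0.58 (adjusted p = 0.000165) and Slc16a1 by 3.23 ± 0.37 (adjusted p = 4.18e-07), and Slc2a3 stayed lower at −4.05 ± 0.34 (adjusted p = 6.14e-09). The 2 comparisons share the precursor-like samples, and the difference between the stages was not tested.

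In committed against precursor-like cells, 2 of the 10 genes were higher and 3 lower, while 23.6% of all genes were called (9.75% higher and 13.9% lower). Those higher were Hk2 (3.75 ± 0.62, adjusted p = 0.000124, 8.89 ± 0.391 against 0.94 ± 0.585 CPM) and Slc16a3 (3.13 ± 0.82, adjusted p = 0.00623, from 12 and 10 against 1 and 9 UMIs). Those lower, beside Slc2a3, were Ldhb (−1.70 ± 0.30, adjusted p = 0.000248) and Hk1 (−1.06 ± 0.23, adjusted p = 0.00153). In oligodendrocyte-like against precursor-like cells 5 were higher and 2 lower, while 37.1% of all genes were called (15.6% higher and 21.5% lower). Pfkfb3 (1.93 ± 0.33, adjusted p = 5.29e-05), Slc16a3 (2.82 ± 0.73, adjusted p = 0.00309) and Hk2 (1.75 ± 0.60, adjusted p = 0.0214) joined the higher side, and Ldha (−1.32 ± 0.35, adjusted p = 0.00368) the lower. The Hk2 call was lost with DESeq2, at 1.45 (adjusted p = 0.0916), with DESeq2 size factors and at a mitochondrial limit of 5%, where committed Hk1 also fell short at −0.99. Hk1 in oligodendrocyte-like cells passed the p threshold but not the size threshold (−0.84 ± 0.21) and was called with DESeq2 at −1.10. Slc16a7 was called in neither, at 0.24 ± 0.31 and 0.19 ± 0.30. The stress list sum in precursor-like cells was 373 and 6847 CPM.

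Among the pathway lists, of 18 other glycolysis genes 2 were higher and 2 lower (median 0.36), of 13 genes of pyruvate entry to mitochondria 4 were higher and 0 lower (median 0.59), and of 13 glycogen genes 0 were higher and 3 lower (median −0.67) in committed cells, beside −0.05 for all genes. Pdk1, which inhibits pyruvate dehydrogenase, was higher there by 2.48 ± 0.33 (adjusted p = 1.14e-05). In the lists, of 18 other glycolysis genes 4 were higher and 4 lower (median −0.04), of 13 genes of pyruvate entry to mitochondria 5 were higher and 1 lower (median 0.64), and of 13 glycogen genes 0 were higher and 3 lower (median −0.55) in oligodendrocyte-like cells, beside 0.06 for all genes, with Aldoa at 1.78 ± 0.26 and Eno1 at −1.41 ± 0.24. By list, of 12 other sugar and monocarboxylate transport genes 0 were higher and 5 lower (median −0.86), and of 15 hypoxia response genes 4 were higher and 4 lower (median −0.07) in oligodendrocyte-like cells, and the hypoxia member Ndrg1, a myelination-related gene, was higher by 6.23 ± 0.59 (adjusted p = 3.04e-08).

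**Figure D3:**
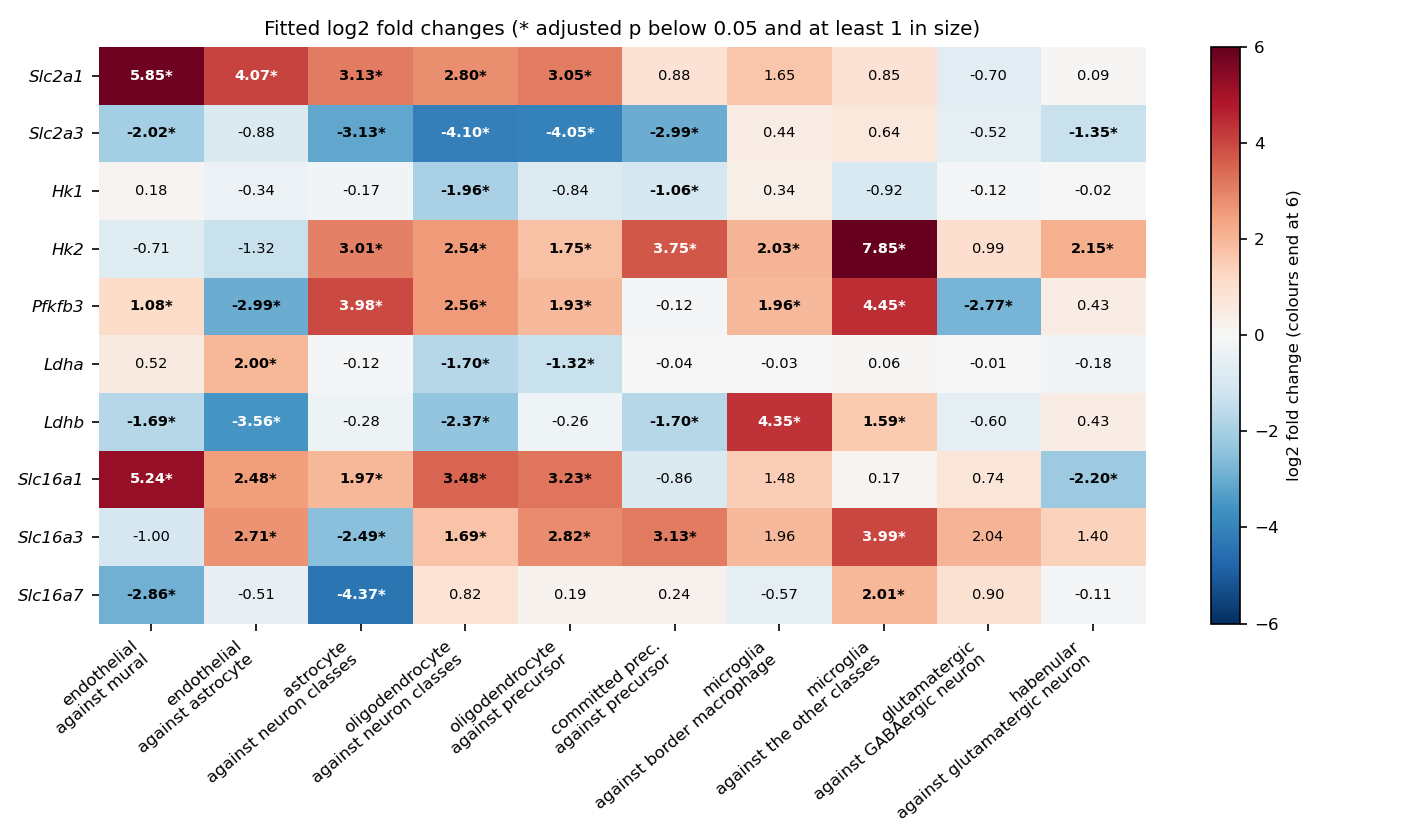
Heat map of the edgeR log2 fold change of each of the 10 genes (rows) in the 10 comparisons (columns), with red for higher in the first-named class, blue for lower, colours ending at 6 and a star on called genes. Slc2a1 and Slc16a1 are starred in each of the 5 comparisons at the left, with 5.85 ± 0.47 and 5.24 ± 0.35 against mural-like cells, and Hk2 is at 7.85 ± 0.19 in microglia-like cells against the other classes.

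Microglia-like cells exceeded the mean of the other 13 classes in Hk2, Pfkfb3, Slc16a3, Slc16a7 and Ldhb. That is 5 higher and 0 lower, while 36.5% of all genes were called (21.7% higher and 14.8% lower). Hk2 differed by 7.85 ± 0.19 (adjusted p = 1.21e-17) and Pfkfb3 by 4.45 ± 0.16 (adjusted p = 1.96e-15), a fold being the mean over classes on the log scale and so not the ratio of mean CPM. Slc16a3 differed by 3.99 ± 0.33 (adjusted p = 1.35e-09), Slc16a7 by 2.01 ± 0.20 (adjusted p = 3.39e-08) and Ldhb by 1.59 ± 0.18 (adjusted p = 1.82e-07). Slc16a7 and Ldhb were not highest in microglia-like cells, which ranked 4 and 6 by mean CPM among the classes. In both mice Slc16a7 was higher in border macrophage-like cells, and Ldhb in astrocyte-like and in glutamatergic, GABAergic and habenular neuron-like cells. Hk1 passed the p threshold on the lower side but not the size threshold (−0.92 ± 0.17, adjusted p = 0.000125), and with DESeq2 it was called lower at −1.02. Slc2a1 was not called (0.85 ± 0.36, adjusted p = 0.0553), with 0.10 in mouse 1 and 1.44 in mouse 2. The stress list had 17 higher and 0 lower of 17, and its part in the result was not tested.

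Against border macrophage-like cells, 3 genes were higher and 0 lower, while 12.9% of all genes were called (7.63% higher and 5.28% lower). Ldhb, at 303 ± 9.47 against 17.8 ± 0.060 CPM, differed by 4.35 ± 0.36 (adjusted p = 5.41e-08) with 4.19 in mouse 1 and 4.46 in mouse 2. Hk2 differed by 2.03 ± 0.38 (adjusted p = 0.000615) and Pfkfb3 by 1.96 ± 0.32 (adjusted p = 0.000183), with 1.30 in mouse 1 and 2.92 in mouse 2 for Hk2. Ldha (−0.03 ± 0.37) and Hk1 (0.34 ± 0.26) were not called. Slc16a3 missed the threshold (1.96 ± 0.69, adjusted p = 0.0596), with a pooled ratio of 4.1 (95% exact interval 2.26 to 8.3) from 317 and 11 UMIs. Each mouse alone, with no test, put 5 genes past 2-fold higher. With DESeq2 size factors the calls over all genes split 1007 higher and 1062 lower, against 1312 and 908 here.

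Among other transporters, Slc2a5, which encodes the fructose transporter GLUT5, was microglial by 8.61 ± 0.21 (adjusted p = 2.42e-17) against the other classes and by 6.21 ± 0.53 (adjusted p = 9.91e-08) against border macrophage-like cells (199 ± 60.9 against 2.69 ± 3.81 CPM). Slc16a6, a ketone body and taurine carrier, differed by 5.08 ± 0.16 (adjusted p = 1.66e-16) and 2.30 ± 0.32 (adjusted p = 2.90e-05). Of 18 other glycolysis genes 2 were higher and 4 lower (median −0.57), of 13 glycogen genes 2 were higher and 0 lower (median −0.29), and of 12 other sugar and monocarboxylate transport genes 3 were higher and 4 lower (median −0.65) against the other classes, beside −0.01 for all genes. Among the pathway lists, of 13 genes of pyruvate entry to mitochondria 1 was higher and 3 lower (median −0.85), and of 15 hypoxia response genes 2 were higher and 2 lower (median 0.04), with Pdk1 at 2.17 ± 0.18 (adjusted p = 2.25e-09). In the lists, of 18 other glycolysis genes 1 was higher and 1 lower (median 0.28), of 13 genes of pyruvate entry to mitochondria 2 were higher and 0 lower (median 0.39), and of 12 other sugar and monocarboxylate transport genes 2 were higher and 2 lower (median 0.29) against border macrophage-like cells, beside 0.23. Pfkp was lower in microglia-like cells in both (−3.18 ± 0.52 and −3.56 ± 0.64).

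Between neuron types the called genes were Pfkfb3 for glutamatergic against GABAergic cells and Slc16a1, Slc2a3 and Hk2 for habenular against glutamatergic cells. Glutamatergic against GABAergic neuron-like cells gave 0 higher and 1 lower, while 12% of all genes were called (7.14% higher and 4.85% lower). The 1 called was Pfkfb3, at 1.21 and 1.93 against 10.1 and 16.3 CPM, a difference of −2.77 ± 0.37 (adjusted p = 2.35e-05). Ldhb differed by −0.60 ± 0.28 (adjusted p = 0.176), with −0.86 in mouse 1 and −0.21 in mouse 2, and Slc16a7 by 0.90 ± 0.32 (adjusted p = 0.061). By list, of 18 other glycolysis genes 0 were higher and 1 lower (median −0.09), of 13 glycogen genes 2 were higher and 0 lower (median −0.05), and of 12 other sugar and monocarboxylate transport genes 2 were higher and 1 lower (median 0.00), beside 0.11 for all genes. Aldoc was lower in glutamatergic cells at −2.04 ± 0.29 (adjusted p = 3.92e-05), and Gbe1 (2.25 ± 0.31, adjusted p = 3.06e-05) and Pdp1 (3.10 ± 0.48, adjusted p = 0.000116) were higher. Erythroid RNA in GABAergic neuron-like cells was 8606 and 30.8 CPM, and its part in these values was not tested.

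Habenular against glutamatergic neuron-like cells gave 1 higher and 2 lower, while 21.1% of all genes were called (8.97% higher and 12.1% lower). Slc16a1, at 4.87 ± 0.798 against 20.6 ± 8.04 CPM, differed by −2.20 ± 0.38 (adjusted p = 0.000142) and Slc2a3, at 27.9 ± 1.12 against 66 ± 6.04 CPM, by −1.35 ± 0.30 (adjusted p = 0.00197). The gene called higher, Hk2, rested on 27 against 24 UMIs, a pooled ratio of 5.99 (95% exact interval 3.33 to 10.8), and the mice gave 0.26 in mouse 1 and 2.72 in mouse 2. Ldhb (0.43 ± 0.28), Ldha (−0.18 ± 0.34), Hk1 (−0.02 ± 0.21) and Slc16a7 (−0.11 ± 0.30) were not called. Of 18 other glycolysis genes 0 were higher and 1 lower (median −0.21), of 13 genes of pyruvate entry to mitochondria 0 were higher and 3 lower (median −0.24), and of 13 glycogen genes 0 were higher and 0 lower (median −0.14), beside −0.04 for all genes, with Pfkm at −1.96 ± 0.26 (adjusted p = 7.70e-06) and Pdp1 at −3.31 ± 0.47 (adjusted p = 1.72e-05).

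Within oligodendrocyte-like cells the lactate dehydrogenase subunits varied by cluster. In cluster 7, whose leading gene was the protease gene Klk6 (755 and 502 CPM, against 1.23 to 82.9 CPM in 4 other clusters), Ldhb stood at 230.5 and 216 CPM and Ldha at 5.82 and 3.21 CPM. In cluster 5, Ldhb was 62.2 and 57.4 CPM, and in clusters 0, 1 and 9, which had the prostaglandin synthase gene Ptgds among their leading genes, 18.7 to 59.1 CPM. Ldha was 30.1 and 20.7 CPM in cluster 1. The Ldhb share was 97.5% and 98.5% in cluster 7, 91.1% and 91.3% in cluster 5 and 43% and 47.4% in cluster 1. For Ldhb and its share, cluster 7 lay above the 4 other clusters in both mice. Cluster 34, of 6 and 16 cells, was too small to compare. Slc2a1, at 54.9 to 85.9 CPM, and Slc16a1, at 65.5 to 107 CPM, spanned much narrower ranges over the same 5 clusters. Clusters are cut from the same cells, so these values are a description with no test.

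Neuron-like clusters fell into groups by their ribosomal protein RNA. In clusters 6, 20 and 21, and in cluster 27 of mouse 2, ribosomal protein genes made up 0.218 to 0.35% of UMIs, against 1.83 to 4.6% in clusters 12, 13, 16, 18, 23 and 28. In the former, Ldhb was 41.1 to 61.7 CPM, Ldha 5.43 to 14.4 CPM and Hk1 50.3 to 71.8 CPM. In the latter, Ldhb was 356 to 928, Ldha 38.2 to 126 and Hk1 88.1 to 147 CPM, all without overlap. Slc16a7 lay the other way, at 88 to 106 against 39.9 to 66.5 CPM, and Slc2a3 overlapped. Without those clusters the Ldhb share was 91.3% and 81.9% in glutamatergic neuron-like cells, beside 91.3% and 82% with them. Both subunits were lower in those clusters, so this share could change little and does not speak to levels or fold changes. Astrocyte-like cluster 14, with 0.519 and 0.458% ribosomal RNA, had 194 and 104 CPM Ldhb and 64.1 and 54.4 CPM Slc2a1, against 394 and 376 CPM Ldhb and 126 and 114 CPM Slc2a1 in cluster 4 (1.14 and 0.966% ribosomal). The part of RNA composition or cell state in these differences was not tested.

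Microglia-like cells formed 2 clusters that also separated the mice, cluster 8 with 749 cells of mouse 1 and 10 of mouse 2, and cluster 10 with 77 and 500. Within mouse 1, Hk2 was 333 CPM in cluster 8 and 379 CPM in cluster 10, and Pfkfb3 108 and 91.1 CPM, with a stress list sum of 1847 against 26076 CPM. Slc2a1 differed more, with 28.5 and 61.3 CPM, and Slc16a7 the other way with 125 and 79.2 CPM. Cluster 10 in mouse 2 had 361 CPM Hk2, 235 CPM Pfkfb3 and 69.2 CPM Slc2a1, with a stress list sum of 32433 CPM. The Pfkfb3 value of mouse 2 exceeded that of the same cluster in mouse 1. Ccl3 and Ccl4, which belong to the stress list, were among the leading genes of cluster 10. The part of stress genes, or of the mouse, in these values was not tested.

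**Figure D4:**
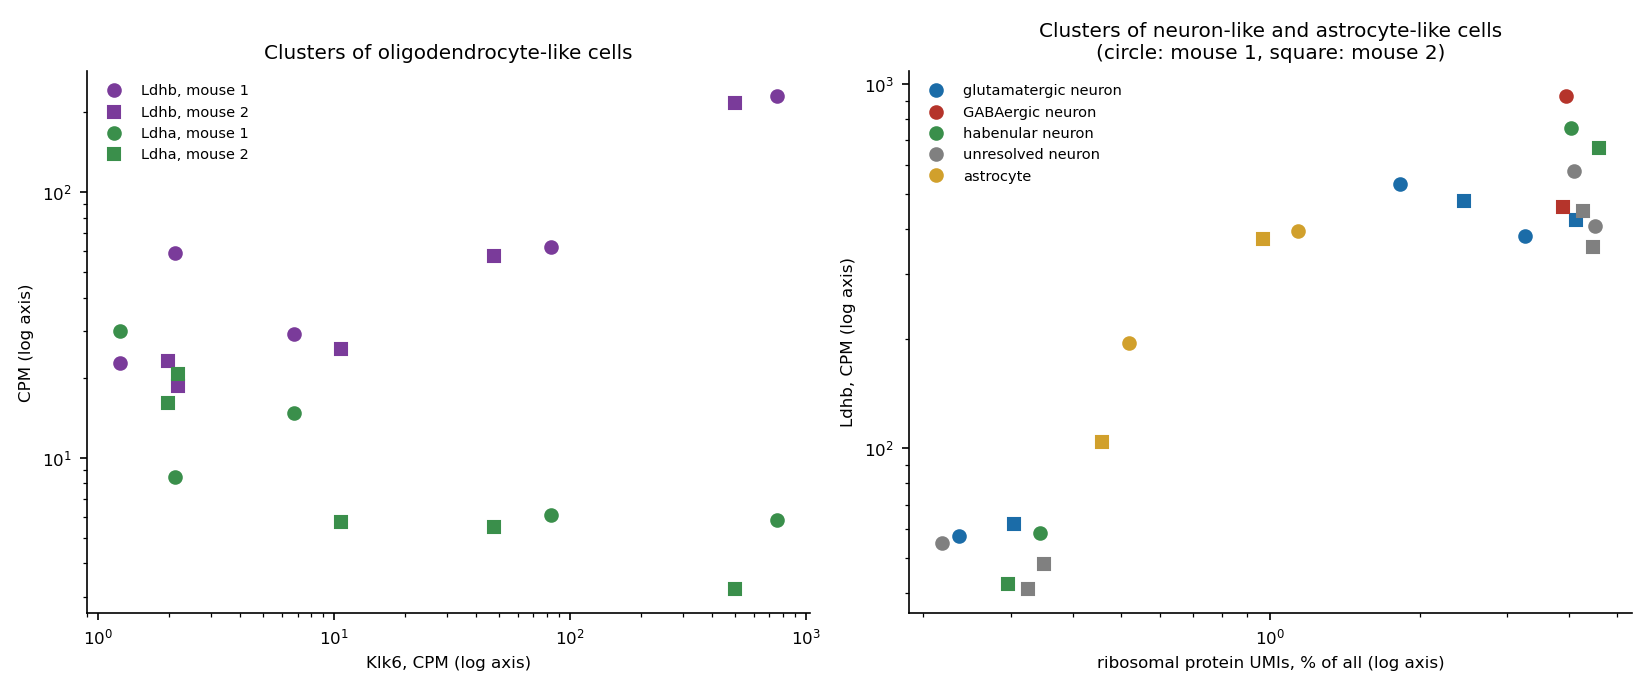
Left, Ldhb and Ldha (CPM) against Klk6 (CPM) in clusters of oligodendrocyte-like cells, and right, Ldhb (CPM) against the ribosomal protein share of UMIs (percent) in clusters of neuron-like and astrocyte-like cells, all on log axes with 1 point per cluster and mouse. The cluster with the most Klk6 has Ldhb at 230.5 and 216 CPM, and neuron-like clusters of low ribosomal share lie at 41.1 to 61.7 CPM.

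The classes differed in depth, so shares of cells with at least 1 UMI were compared after thinning each cell to 2000 UMIs, leaving out at most 13 shallower cells of a class and mouse. Slc2a1 was then seen in 95.3% and 94.1% of endothelial-like cells and 1.91% and 1.13% of glutamatergic neuron-like cells, which before thinning showed 57.9% and 22.3% at median depths of 86657 and 43769 UMIs. Hk2 was seen in 46.5% and 43% of microglia-like cells (95.5% and 89.2% unthinned) and in 0% and 0% of endothelial-like cells. Ldhb was seen in 70.8% and 69.8% of GABAergic neuron-like, 42.7% and 51.8% of astrocyte-like and 5.84% and 6.52% of endothelial-like cells, and Ldha in 42.1% and 24.6% of endothelial-like and 4.22% and 2.0% of oligodendrocyte-like cells. Slc16a1 was seen in 27.4% and 30.2% of endothelial-like and 14% and 18.6% of oligodendrocyte-like cells. Slc16a7 was seen in 25.9% and 21.7% of border macrophage-like and 0.195% and 0.563% of astrocyte-like cells. A cell without a UMI at this depth may still express the gene.

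Endothelial marker RNA outside its class was measured beside the low Slc2a1 values. Its 8 markers summed to 19398 and 19802 CPM in endothelial-like cells, 756 and 1221 CPM in pericyte-like cells and 44.2 and 34.8 CPM in astrocyte-like cells, with none at 0. Per 100 such UMIs, Slc2a1 stood at 9.09 and 9.51 in endothelial-like, 5.12 and 4.12 in pericyte-like and 8.93 and 11.2 in smooth muscle-like cells. It was 231 and 318 in astrocyte-like and 148 and 769 in oligodendrocyte-like cells, above the endothelial ratio in both mice. Pericyte-like cells lay below the endothelial ratio in both mice. The part of stray endothelial RNA in these Slc2a1 values was not tested.

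Across the 28 class sums, which all come from the same 2 libraries, log2 levels of Slc2a1 and Slc16a1 had a Pearson correlation of 0.74, Slc16a3 and Hk2 of 0.71, Ldhb and Hk1 of 0.68 and Hk2 and Pfkfb3 of 0.63. Hk1 and Hk2 were opposed, at −0.70, as were Slc2a1 and Slc16a7, at −0.62, and Slc2a1 and Slc2a3, at −0.51. Among 10705 genes compared, those whose pattern was most like Slc2a1 were Edn1 (0.85), Slco1c1 (0.85), Robo4 (0.83), and those most like Hk2 were Ctsd (0.96), Siglech (0.94), Dapp1 (0.94). Slc2a3 was most like B4galnt1 (0.90), Ptpn5 (0.89), Ppfia3 (0.88), and Hk1 most like Rbfox2 (0.91), Abhd8 (0.90), Sgtb (0.90). For Ldha these were Anxa7 (0.89), Rbms1 (0.88), Utrn (0.88), and for Ldhb Zyg11b (0.88), Sfmbt2 (0.85), Rab3gap1 (0.83). For Slc16a1 they were Tspan5 (0.87), Tmc7 (0.78), Usp54 (0.78), for Slc16a7 Slc8a1 (0.87), Fmn1 (0.83), Clgn (0.81), for Slc16a3 Ccl3 (0.79), Slc15a3 (0.78), Cerk (0.78) and for Pfkfb3 Acox3 (0.80), Ston2 (0.80), Pnpla7 (0.80). These correlations describe 14 classes in 2 mice and carry no test.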

How the data were processed

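The authors deposited 1 matrix of UMI counts per mouse, made with Cell Ranger 7.1.0 on mm10 per the file headers and the submitters' processing notes. Cells with at least 500 genes, 1000 UMIs and at most 15% mitochondrial UMIs were kept, and 187 and 268 predicted doublets were removed (2.94% and 2.84%, against 6.31% and 9.69% expected). The median kept cell had 17998 UMIs in mouse 1 and 14758.5 in mouse 2. Cells were clustered with scanpy 1.11.5 (2000 variable genes, none of them a gene described here or on a pathway list, 30 components, Leiden resolution 1), giving 35 clusters. Of these, 6 stayed unnamed, with 528 and 316 cells, among them cluster 15, led by endothelial genes with markers of a further class. Counts were summed per mouse and class and tested with edgeR 4.0.16 (quasi-likelihood, TMM scaling, mouse as a block because the same animal gave every class of a mouse, Benjamini-Hochberg adjustment over 17188 genes). The fit had 13 residual degrees of freedom. Classes of 1 mouse come from 1 library and are not separate samples, although the fit counts their sums as such. With mouse as a block, p-values measure how far class differences varied between these 2 animals, pooled over all classes. They do not measure the spread among mice in general. An exact permutation of 2 against 2 samples cannot go below p = 0.333. Scripts were tested on simulated data. Pathway genes are named if called, changed the same way in each mouse, at 50 CPM or more on the higher side and among the 3 largest changes of their list; not all are printed, and 1 is not reported here. Genes of similar pattern are the 3 with the highest Pearson correlation of log2(CPM + 1), at a mean of at least 10 CPM. The genes, lists and markers were chosen with earlier results of these data known.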

Additional observations from a re-analysis of the deposited data

How the results depend on the processing

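Of 890 fold changes of the 10 genes under 9 tested alternatives, 870 kept their side of the threshold, 10 lost the call and 10 gained it. Among those called in either fit 0 reversed, and direction was not compared where neither fit called the gene. Against border macrophage-like cells, microglia-like cells had 5 genes higher with no filter on low counts. Against the other classes they had 1 lower (Hk1) with DESeq2 and 1 without cells above 0.5% haemoglobin UMIs, a setting chosen after seeing the data, under which glutamatergic against GABAergic neuron-like cells had 1 higher (Slc16a7). Endothelial Pfkfb3 against mural-like cells lost its call with DESeq2 size factors (0.99, adjusted p = 0.0633) and with DESeq2, and endothelial Slc16a3 against astrocyte-like cells at a mitochondrial limit of 5% (adjusted p = 0.0565). Without the replicate block, Pfkfb3 against mural-like cells also lost its call (1.08, adjusted p = 0.0881), no other call of the 10 genes changed, and genes called were 0.760 to 0.961 times those with the pairing. DESeq2 size factors moved the median of all genes from −0.03 to −0.24 for oligodendrocyte-like against neuron-like cells, from 0.06 to −0.19 against precursor-like cells, from 0.23 to 0.08 for microglia-like against border macrophage-like cells and from 0.11 to −0.01 for glutamatergic against GABAergic neuron-like cells. With DESeq2, the microglia-like calls split 945 higher and 1036 lower against border macrophage-like cells, and 3345 and 3712 against the other classes, where edgeR gave 3732 and 2547.

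Each mouse alone allows no test, so genes past 2-fold were counted. These were 6020 to 6291 for endothelial-like against mural-like cells, 5662 to 7773 for committed against precursor-like, 5682 to 7829 for microglia-like against border macrophage-like and 3886 to 5240 for glutamatergic against GABAergic neuron-like cells. Of the 10 genes, 3 to 5 were lower in endothelial-like than mural-like and 3 to 4 than astrocyte-like cells, 1 to 2 lower in oligodendrocyte-like than precursor-like cells, and 0 to 1 lower in microglia-like cells than in the other classes. Higher were 5 to 5 against border macrophage-like cells, 0 to 2 in glutamatergic against GABAergic and 1 to 2 in habenular against glutamatergic neuron-like cells. Classes with Slc16a1 above 50% of its family numbered 3 to 4. Leaving out clusters of low UMI counts removed 0 clusters and is not among the 9, and at Leiden resolution 0.5 the GABAergic comparison could not be given because too few such cells remained in mouse 2.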

Other observations

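Ependymal-like cells (cluster 31), the ciliated lining of the ventricles, entered no comparison because mouse 1 gave 4 of them. The 29 cells of mouse 2 held 296.7 CPM of the barrier glucose transporter gene Slc2a1, from 143 UMIs, and 76.8 CPM of the lactate transporter gene Slc16a1, from 37 UMIs. Slc2a3 stood at 37.3 CPM and Slc16a7 at 12.4 CPM. These are values of 1 animal with no replicate check.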
